A study of Mus musculus with 22 samples.

Results

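The 6 enzymes described here make catecholamines and their cofactor tetrahydrobiopterin. Their RNA was measured by sequencing in mouse tissue labelled total hindbrain and in RNA immunoprecipitated from it, labelled noradrenergic. The members were chosen by gene symbol (Th, Ddc, Gch1, Pts, Spr and Qdpr), and 6 of 6 were among the 12596 genes of the deposited table. The 22 libraries came from 11 mice of a cross between a Th-cre line and the Slc6a2-eGFP/Rpl10a line, with C57Bl/6 given as the background strain. In the latter line regulatory sequence of Slc6a2, the noradrenaline transporter gene, drives a ribosomal protein with a fluorescent tag, so that ribosomes of noradrenergic cells and the RNA bound to them can be pulled down. All animals of both treatments carried these transgenes, and 5 were infused with hTyr, human tyrosinase, while 6 were infused with EYFP, a fluorescent protein, as control. Tyrosinase is the enzyme that forms melanin from tyrosine and L-DOPA, and the title of the series concerns neuromelanin in the locus coeruleus. Each animal gave 1 immunoprecipitated library (IP, labelled noradrenergic) and 1 library of the RNA before immunoprecipitation (input, labelled total hindbrain), which makes the groups hTyr IP (n = 5), EYFP IP (n = 6), hTyr input (n = 5) and EYFP input (n = 6). Ages and the time after infusion are not given in the sources used here.

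Catecholamine synthesis starts from tyrosine. Th, tyrosine hydroxylase, turns it into L-DOPA and sets the rate of the pathway, and Ddc, aromatic L-amino acid decarboxylase, turns L-DOPA into dopamine, which Dbh then makes into noradrenaline. Th works only with tetrahydrobiopterin, which is made from GTP in sequence by Gch1 (GTP cyclohydrolase, the limiting enzyme), Pts (6-pyruvoyltetrahydropterin synthase) and Spr (sepiapterin reductase), and which Qdpr (dihydropteridine reductase) regenerates after each turn. Serotonin neurons use the same cofactor and the same decarboxylase, and Qdpr and Spr are made in many cell types.

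On the mm10 build (GRCm38, GENCODE M21) the 6 genes lie on 6 chromosomes, all on the minus strand. Th spans chr7:142892752-142931128, Ddc chr11:11814101-11898144, Gch1 chr14:47153895-47189413, Pts chr9:50521617-50528724, Spr chr6:85130176-85137766 and Qdpr chr5:45434021-45450236. Exons of Qdpr share 1498 bases with those of Gm42413, an antisense gene on the other strand that is not used here. Whether reads were counted by strand is not given in the sources used here, so reads of that pair cannot be told apart. The promoter windows of Th, Gch1 and Ddc are printed because these were the 3 members most enriched in IP and the 3 whose levels moved together from animal to animal. Each window runs from 250 bases before to 50 bases from the transcription start, in gene orientation, from RefSeq (GRCm38.p6), at chr7:142899946-142900245 for Th, chr14:47189364-47189663 for Gch1, and chr11:11898095-11898394 and chr11:11890359-11890658 for the 2 windows of Ddc. Capitals mark matches, on either strand, to the cyclic AMP response element TGACGTCA, its shorter form TGACG (contained in the full element), the CCAAT box CCAAT and the TATA box TATAAA.
Th: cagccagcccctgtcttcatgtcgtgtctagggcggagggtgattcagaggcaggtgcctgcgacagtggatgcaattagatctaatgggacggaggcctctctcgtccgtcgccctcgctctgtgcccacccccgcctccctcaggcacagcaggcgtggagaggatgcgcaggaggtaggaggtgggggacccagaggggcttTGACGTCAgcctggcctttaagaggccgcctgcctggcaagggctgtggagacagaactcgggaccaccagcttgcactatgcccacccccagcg
Gch1: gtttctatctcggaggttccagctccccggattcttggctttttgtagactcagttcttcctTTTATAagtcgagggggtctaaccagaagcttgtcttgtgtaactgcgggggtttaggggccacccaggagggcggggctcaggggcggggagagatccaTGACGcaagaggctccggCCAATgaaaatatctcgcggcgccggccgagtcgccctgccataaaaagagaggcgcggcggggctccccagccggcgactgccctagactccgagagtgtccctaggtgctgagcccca
Ddc, window 1: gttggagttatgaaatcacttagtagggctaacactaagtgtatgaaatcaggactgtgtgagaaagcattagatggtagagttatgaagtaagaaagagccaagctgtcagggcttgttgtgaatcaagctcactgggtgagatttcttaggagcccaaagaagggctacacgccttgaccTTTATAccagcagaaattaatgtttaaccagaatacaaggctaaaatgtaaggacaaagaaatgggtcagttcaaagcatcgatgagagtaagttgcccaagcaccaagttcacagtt
Ddc, window 2: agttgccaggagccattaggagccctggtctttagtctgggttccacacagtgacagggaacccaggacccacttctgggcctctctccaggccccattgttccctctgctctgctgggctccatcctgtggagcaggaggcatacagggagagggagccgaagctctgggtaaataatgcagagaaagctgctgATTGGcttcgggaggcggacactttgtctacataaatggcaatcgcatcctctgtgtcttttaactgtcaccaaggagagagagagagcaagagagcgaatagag
The Th window held the full element TGACGTCA with its first base at position -45, and 1.79% of the 32851 promoter windows in the RefSeq table held it. The Gch1 window held TGACG at -88 (20.8% of windows), CCAAT at -70 (37.4%) and TATAAA, on the reverse strand, at -188 (13.6%). The first Ddc window held TATAAA at -68 and the second CCAAT at -55, both on the reverse strand. Of the other members, Qdpr held CCAAT at -244 and -65, and the windows of Pts and Spr held none of the 4 motifs. These matches describe letters in a window and are not evidence of a bound factor.

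Values are log2 CPM, reads scaled to a common library size and put on a log2 scale, where 1 unit is a 2-fold difference. Reads in the table ranged from 12654489 to 20368032 per IP library and from 16988860 to 25100142 per input library, and the lowest count of any member in any library was 121 reads, for Gch1 in EYFP input. The IP libraries matched their label in that 8 of 8 noradrenergic markers (such as Dbh, Slc6a2 and Phox2a) were higher in IP than in input in both treatments. The summed level of the 8 was 423 to 944 CPM in EYFP IP, 476 to 1311 in hTyr IP and 93.2 to 115 over all input libraries. RNA of other cells was present too: 10 of 10 oligodendrocyte markers were in the table, and they summed to 6211 to 8647 CPM in IP and 6747 to 9384 in input. In bulk RNA, fewer cells of a type and less RNA per cell cannot be told apart.

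The first comparison, IP against input, asks which of the 6 RNAs were concentrated on ribosomes of the tagged cells. In EYFP animals 5 of the 6 rose in IP: Th, Ddc, Gch1, Spr and Qdpr. Among all genes 28.5% were higher in IP at an adjusted p under 0.05 and 56.5% passed in either direction (limma with Benjamini-Hochberg adjustment over the 12596 genes, which applies to every adjusted p for a gene here). In hTyr animals the same 5 members passed, against 27.4% of genes higher and 54.4% in either direction. Markers of some other cells rose in IP as well. Of 8 markers of other neurons 6 passed as higher in EYFP and 5 in hTyr, and 0 passed as lower in either. Their summed level was 1054 to 1450 CPM in IP and 819 to 1126 in input. Among them, and chosen after their values were seen, Slc17a6, a glutamate transporter, rose by 1.08 and 1.33, Slc5a7, the choline transporter, by 1.27 and 1.49, and Gad1, which makes GABA, by 0.84 and 0.88 in EYFP and hTyr. Slc17a7 and Slc6a5 went the other way, at -0.43 and -0.12 in EYFP and -0.54 and -0.08 in hTyr, without passing. With the animal added to the limma fit, Slc17a7 passed as lower (adjusted p = 5.57e-06 in EYFP and 1.68e-05 in hTyr). Of 7 astrocyte markers 3 passed as higher and 1 as lower in EYFP, and 4 as higher and 1 as lower in hTyr. The part of these cells in the members' rises was not tested. The median difference of the 6 members was 0.75 in EYFP and 0.83 in hTyr animals, beside -0.03 and -0.04 over all genes.

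Th rose most of the 6. In EYFP input it lay between 4.82 and 5.14 log2 CPM with a median of 5.06, and in EYFP IP between 6.53 and 7.70 with a median of 6.93. In hTyr animals 1 to 5 (numbered within a treatment in the order of the labels) it stood at 5.52, 5.35, 5.03, 4.72 and 5.52 in input and at 9.10, 8.45, 7.26, 7.40 and 7.81 in IP. No IP library overlapped an input library in either treatment, which also held for 3 other members (Ddc, Gch1 and Spr) and for 16.7% of all genes in EYFP and 20.7% in hTyr, counted as higher in IP. The rise was 1.99 in EYFP (SE 0.15, adjusted p = 3.52e-07), which is 3.97-fold, and 2.78 in hTyr (SE 0.27, adjusted p = 3.40e-07), or 6.85-fold. These placed Th 13th and 7th of the 12596 genes by size of rise. Th was still less concentrated than Dbh, dopamine beta-hydroxylase, in 11 of 11 animals, by 1.80 ± 0.37 on the log2 scale (SD, n = 11; range 1.12 to 2.23 below Dbh), and less than Slc6a2 in 11 of 11. Against Slc18a2, the vesicular monoamine transporter, Th was lower in 2 of 11 animals and on average 0.16 ± 0.24 higher (SD, n = 11).

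Gch1, the entry step of cofactor synthesis, came next. In EYFP animals it lay between 2.75 and 3.09 log2 CPM in input (median 2.94) and between 4.04 and 4.88 in IP (median 4.30). In hTyr animals 1 to 5 it stood at 6.12, 5.36, 4.28, 4.77 and 5.09 in IP, and between 2.82 and 3.45 in input. IP and input did not overlap. It rose by 1.49 in EYFP (SE 0.15, adjusted p = 1.56e-06) and by 1.96 in hTyr (SE 0.25, adjusted p = 5.94e-06), or 2.80-fold and 3.90-fold. Ddc, which serotonin neurons also use, followed. It lay between 5.41 and 5.59 in EYFP input and between 6.31 and 7.02 in EYFP IP, and in hTyr animals between 5.47 and 5.82 in input and between 6.67 and 7.56 in IP, again with no overlap. Ddc rose by 1.13 (SE 0.10, adjusted p = 8.98e-07) in EYFP and by 1.33 (SE 0.14, adjusted p = 7.19e-07) in hTyr.

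The later cofactor enzymes behaved differently from Gch1. Pts, which follows it, differed by -0.06 in EYFP (95% confidence interval -0.20 to 0.09, adjusted p = 0.497) and by -0.13 in hTyr (interval -0.32 to 0.07, adjusted p = 0.253), and was higher in IP in 2 of 11 animals. Its group means lay between 5.19 and 5.32 log2 CPM in the 4 groups, and single libraries between 4.95 and 5.43. So the level of Pts was nearly flat, while that of Gch1 differed by a mean of 1.49 or more between fractions. Spr, the last synthetic step, was higher in IP in 11 of 11 animals, with a rise of 0.37 in EYFP (SE 0.07, adjusted p = 0.000357) and 0.32 in hTyr (SE 0.10, adjusted p = 0.0102). Qdpr, the recycling enzyme, was higher in 10 of 11 animals. It rose by 0.30 in EYFP (SE 0.09, adjusted p = 0.00981) and by 0.26 in hTyr (SE 0.10, adjusted p = 0.0353). In hTyr animals Spr lay between 6.08 and 6.53 in input and between 6.55 and 6.84 in IP, close but without overlap, and Qdpr between 8.71 and 9.23 in input and between 9.22 and 9.39 in IP, with overlap. The hTyr call for Qdpr was lost with median centring (0.19, adjusted p = 0.127), with no trend in the prior variance (adjusted p = 0.0578), and without hTyr animal 2, 3 or 4 (adjusted p = 0.0814, 0.102 and 0.141). Without hTyr animal 4 the Spr call was lost too (0.22, adjusted p = 0.0779), which left 3 of 6 members.

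**Figure D1:**
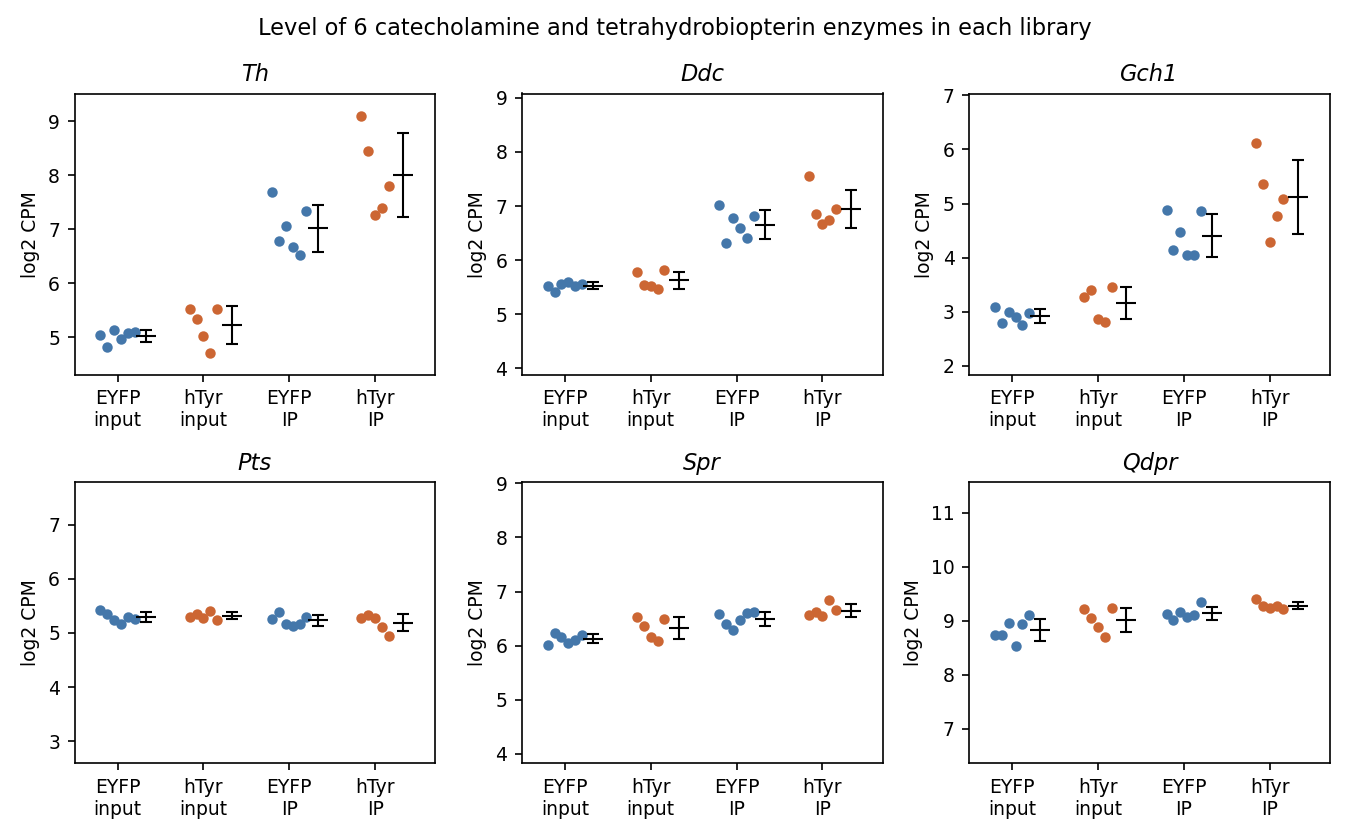
Level of each enzyme in each library (y axis, log2 CPM; every panel spans the same number of units), with 1 point per library, EYFP in blue and hTyr in orange, and the mean with its SD beside the points. Th, Ddc, Gch1 and Spr are higher in every IP library than in any input library of the same treatment. So are 16.7% of all genes in EYFP and 20.7% in hTyr. Pts is nearly flat, and the hTyr IP values of Th run from 7.26 to 9.10.

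**Figure D2:**
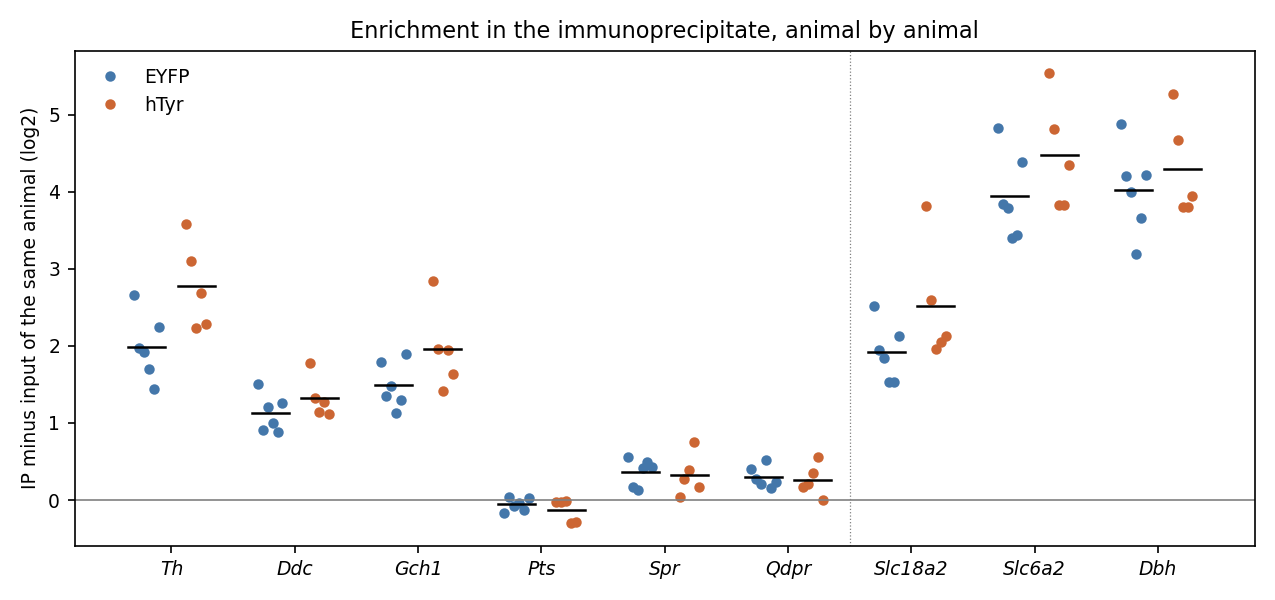
IP minus input of the same animal (y axis, log2) for the 6 enzymes and 3 noradrenergic markers, with 1 point per animal and a bar at the mean of each treatment. Th averages 1.99 in EYFP and 2.78 in hTyr animals, below Dbh at 4.02 and 4.30, and Pts lies at or near 0.

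Other genes of the pathway were counted by the written lists, as higher or lower only where the adjusted p was under 0.05. Of 6 measured genes of tetrahydrobiopterin recycling and control, 4 rose in IP and 0 fell in EYFP animals, and 3 rose and 1 fell in hTyr animals. Pcbd1, which recycles the cofactor together with Qdpr, rose by 0.87 in EYFP (adjusted p = 6.39e-06) and by 0.61 in hTyr (adjusted p = 0.00240), and the aldose reductase Akr1b3 by 1.06 and 1.27, while Pcbd2 fell in hTyr (-0.35, adjusted p = 0.0272) and stood at -0.11 in EYFP (adjusted p = 0.530). Carbonyl reductase Cbr1 rose by 0.68 in EYFP and 0.60 in hTyr, and Cbr3 by 0.53 in EYFP (0.52 in hTyr, adjusted p = 0.0859). Gchfr, the feedback regulator of Gch1, was not analysed here. Among the 4 other enzymes that use the cofactor, 2 rose and 1 fell in both treatments: Tph2, the tryptophan hydroxylase of serotonin neurons, rose by 1.23 and 1.28, Agmo by 0.45 and 0.88, and the neuronal nitric oxide synthase Nos1 fell by 0.31 and 0.41 (EYFP and hTyr in that order). Of the 8 measured genes that act on catecholamines after Ddc, 6 rose and 0 fell in both, with Dbh at 4.02 and 4.30, Slc6a2 at 3.94 and 4.47, Slc18a2 at 1.92 and 2.51, Maoa at 1.31 and 1.61, Maob at 0.91 and 1.00 and Cyb561 at 0.75 and 0.80. Pdxp, a phosphatase that removes the pyridoxal phosphate that Ddc needs, fell by 0.20 and 0.30. Of the tyrosine carriers, 3 of 4 fell in EYFP (Slc7a5 -0.29, Slc7a8 -0.45, Slc43a2 -0.22) and 2 of 4 in hTyr (Slc7a8 -0.32, Slc43a2 -0.24). Of 4 serotonergic markers, 2 were higher in IP in both treatments, Tph2 and the serotonin transporter Slc6a4, while 2 were lower in EYFP and 1 in hTyr, and their summed level was 84.7 to 153 CPM in IP and 65.4 to 90.4 in input. Of 4 dopaminergic markers 2 were in the table, Slc6a3 and Aldh1a1, of which 0 passed in EYFP and 1 was higher in hTyr. With the animal added to the limma fit, both passed as higher in EYFP. Slc6a3 stood at 0.31 (adjusted p = 0.00423) and Aldh1a1 at 0.24 (adjusted p = 0.00183). In hTyr that fit passed Aldh1a1 (0.33, adjusted p = 0.00108) and not Slc6a3 (0.12, adjusted p = 0.359). Slc6a3, the dopamine transporter, was named after its values were seen. Its mean in EYFP input, taken on the log2 scale, was 25.0 CPM, beside 9.43 for Dbh and 8.17 for Slc6a2. The part of serotonergic and dopaminergic cells in the values of Th, Ddc, Gch1 and the other cofactor enzymes was not tested.

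The second comparison, hTyr against EYFP in IP, asks what tyrosinase changed in RNA on the tagged ribosomes. None of the 6 members passed the threshold (0 of 6), where 7 of 12596 genes did (0.0556%). At an unadjusted p under 0.05 there were 2 members, Th and Gch1, and 780 genes. The estimates of 5 of the 6 were above 0, as were those of 48.2% of all genes, and their median was 0.23 beside -0.01. The shift was not particular to the members. Of the 8 noradrenergic markers 6 were above 0, with a median of 0.23. Of the 8 measured genes that act after Ddc, some of them the same genes, 7 were above 0 (median 0.07). Tetrahydrobiopterin recycling and control went the other way, with 2 of 6 above 0 (median -0.14).

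Th had the largest estimate of the 6 members. The 5 hTyr IP values listed above had a mean, taken on the log2 scale, of 257 CPM (SD 0.77 log2 units, n = 5), and the 6 EYFP IP values one of 129 CPM, or 7.02 ± 0.44 log2 CPM (SD, n = 6). Animals 1, 2 and 5 lay above the highest EYFP animal and animals 3 and 4 within the EYFP range, so the groups overlapped. The difference was 0.99 (SE 0.28, 95% confidence interval 0.40 to 1.58), or 1.98-fold. Its limma p was 0.00264 unadjusted and its adjusted p 0.533, which ranked it 61st of all genes by p. By size of the estimate Th stood 13th of 12596. Animal 1 carried a large share of it, with a difference of 0.71 without that animal (adjusted p = 0.989). Gch1 followed with 0.72 (SE 0.25, interval 0.18 to 1.26, adjusted p = 0.754), from 5.12 ± 0.69 in hTyr IP (SD, n = 5) and 4.41 ± 0.39 in EYFP IP (SD, n = 6). Here too animals 1, 2 and 5 lay above the highest EYFP value of 4.88, and animals 3 and 4 did not. Without animal 1 the Gch1 difference was 0.47.

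For the other members the estimates were smaller. Ddc averaged 6.95 ± 0.35 in hTyr IP and 6.65 ± 0.27 in EYFP IP (SD), with a difference of 0.30 (interval -0.02 to 0.62, adjusted p = 0.817), and of 0.15 without animal 1. Of the 5 hTyr animals, only animal 1, at 7.56, was above the EYFP range. Spr differed by 0.16 (interval -0.02 to 0.33), Qdpr by 0.14 (interval -0.02 to 0.31), both at an adjusted p of 0.827, and Pts by -0.05 (interval -0.24 to 0.14, adjusted p = 0.953). For these 3 enzymes the intervals hold differences of at most 0.33 in either direction, while for Th and Gch1 they reach above 1.

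In input, labelled total hindbrain, the same contrast gave 0 of 6 members and 1 of 12596 genes (0.00794%), which was Slc6a2 at -0.91 (adjusted p = 0.0339). All 6 member estimates were positive (46.4% of all genes were), with a median of 0.19 beside -0.01 over all genes. They were 0.20 for Th, 0.10 for Ddc, 0.25 for Gch1, 0.02 for Pts, 0.20 for Spr and 0.18 for Qdpr, each with an adjusted p of 0.990. At an unadjusted p under 0.05 there were 1 member, Spr, and 382 genes. The noradrenergic markers did not share the direction of the members in input, with 1 of 8 above 0 and a median of -0.09. Of the measured dopaminergic markers 2 of 2 were above 0 (median 0.14), and of the serotonergic ones 3 of 4 (median 0.07). The part of these cell types in the members' input estimates was not tested.

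Whether hTyr moved a member more in IP than in input was tested as an interaction over the 22 libraries. It was passed by 0 of 6 members and 1 gene (0.00794%), with 417 genes at an unadjusted p under 0.05. Th had the largest estimate of the 6, at 0.79 (SE 0.34, interval 0.09 to 1.49, adjusted p = 0.996). Gch1 stood at 0.47 (SE 0.31), Ddc at 0.20, Pts at -0.07, and Spr and Qdpr at -0.04 each, all with adjusted p = 0.996. With the animal as a block, which removes what both libraries of an animal share, the SE for Th was 0.21 and its adjusted p 0.452, and 5 genes passed.

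**Figure D3:**
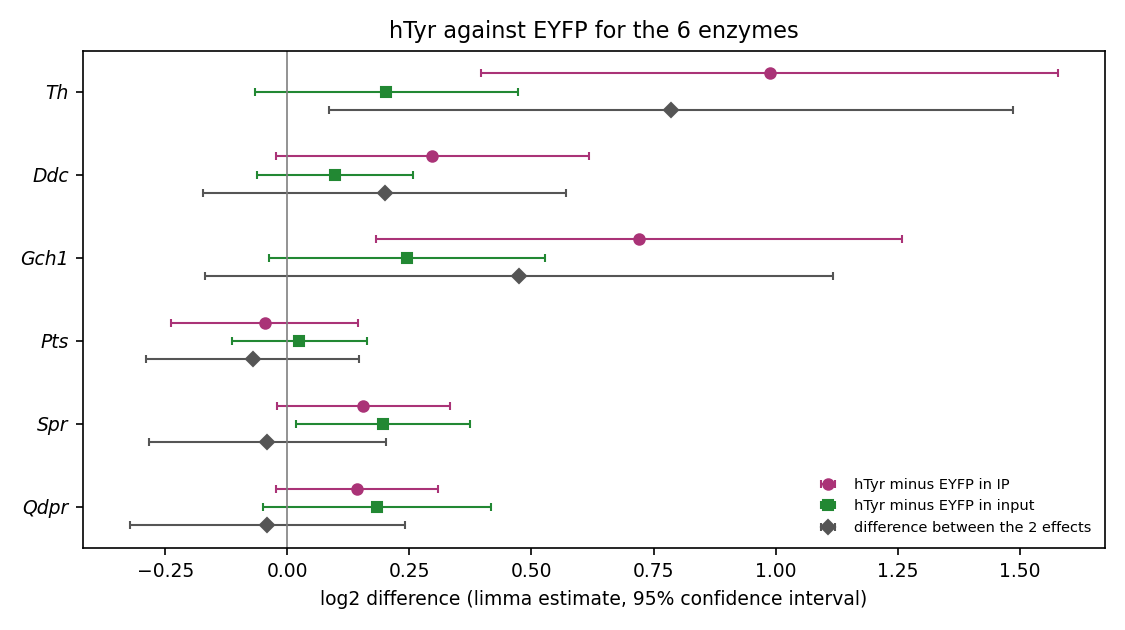
Difference between hTyr and EYFP for each enzyme (x axis, log2) in IP (circles), in input (squares) and as the difference between those effects (diamonds), as limma estimates with 95% confidence intervals. Th at 0.99 and Gch1 at 0.72 lie highest in IP, and none of these estimates passed after adjustment over all genes.

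The amount of noradrenergic RNA varied between IP libraries, with 1311 CPM of summed markers in hTyr animal 1, 944 in EYFP animal 1 and 423 in EYFP animal 5. The treatments' mean log2 sums were 9.41 in hTyr and 9.24 in EYFP (exact two-sided permutation p = 0.597). Each member was therefore also set against Dbh in the same IP library, a marker whose own level differed by 0.04 between treatments (interval -0.54 to 0.62, adjusted p = 0.988). Th minus Dbh lay between 0.45 and 1.01 in the 5 hTyr libraries and between -0.44 and -0.08 in the 6 EYFP libraries. It was above 0 in every hTyr IP library and below 0 in every EYFP one, a zero point that depends on the lengths of both genes, and the groups did not overlap. Of all genes on this scale, 0.0556% (7 of 12595) lay higher in every hTyr library than in any EYFP one. The means were 0.71 ± 0.24 and -0.24 ± 0.16 (SD), a difference of 0.95 (exact two-sided permutation p = 0.00433). That is the smallest p that the assignments of 11 animals to groups of 5 and 6 allow, it is not adjusted for the 21 differences of this kind that were computed, and the ratio was looked at with earlier results known. Gch1 minus Dbh was between -2.53 and -1.70 in hTyr and between -3.13 and -2.57 in EYFP, also without overlap, with means 0.68 apart (exact permutation p = 0.00433). Ddc minus Dbh differed by 0.26 (exact permutation p = 0.290), and Pts, Spr and Qdpr by -0.09, 0.12 and 0.10 (exact permutation p from 0.758 to 0.792).

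The choice of marker mattered. Against Slc6a2 the difference was 1.37 for Th and 1.11 for Gch1, each with an exact permutation p of 0.00433 and no overlap (0.238% of all genes were higher without overlap on that scale, and 0.00794% relative to Slc18a2), and 0.68 for Ddc (exact permutation p = 0.00866). Slc6a2 itself differed by -0.39 in IP (adjusted p = 0.854) and was the gene that fell in input. Against Slc18a2, which differed by 0.50 in IP (adjusted p = 0.803), Th differed by 0.49 (exact permutation p = 0.00866, with overlap), Gch1 by 0.22 (exact permutation p = 0.156) and Ddc by -0.20 (exact permutation p = 0.225). When all genes were fitted with limma on the scale relative to Dbh, 0 of 6 members and 3 genes (0.0238%) passed, with 38 genes at an unadjusted p under 0.05, and Th stood at 0.95 with an SE of 0.39 and an adjusted p of 1.00. The SE was 0.39 or 0.40 for each of the 6 there. Sample quality weights in that fit gave 3 members (Th, Gch1 and Spr) among 2806 genes. Between members, Th minus Ddc was 0.69 higher in hTyr (exact permutation p = 0.0130) and Th minus Gch1 0.27 higher (exact permutation p = 0.0303).

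**Figure D4:**
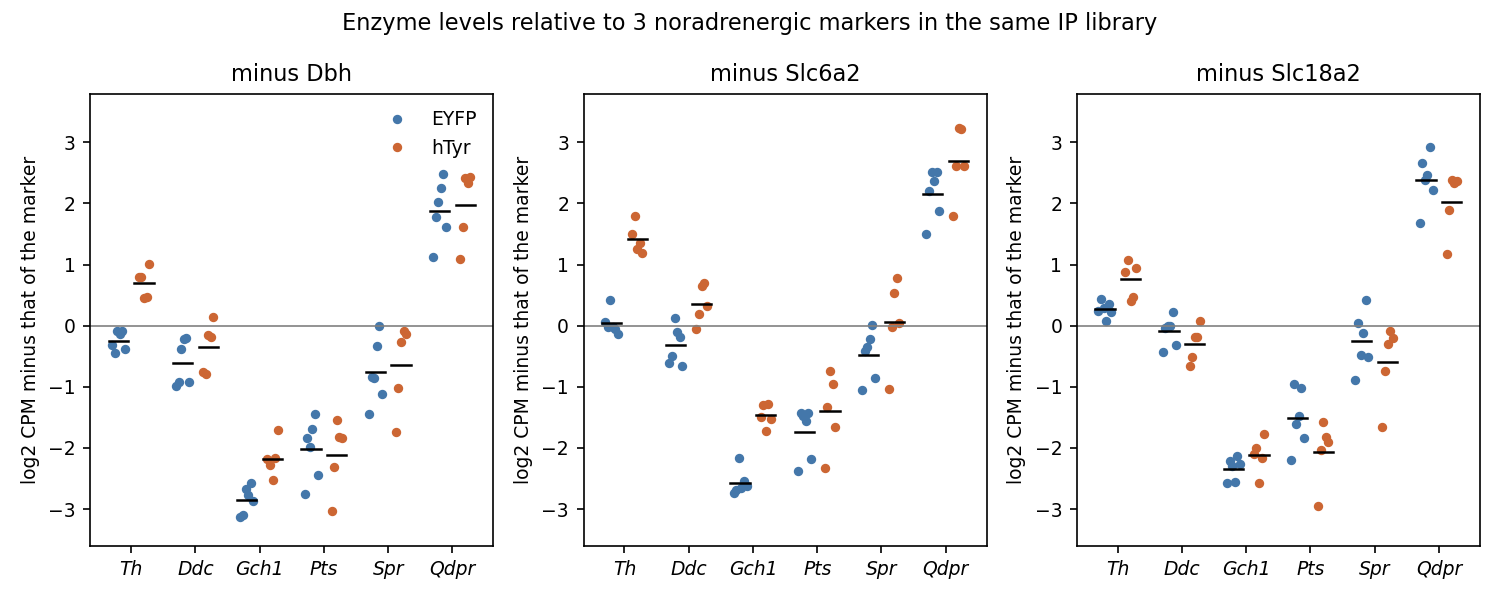
Each enzyme's log2 CPM minus that of Dbh, Slc6a2 or Slc18a2 in the same IP library (y axis), with 1 point per library and a bar at the group mean. Th and Gch1 separate hTyr from EYFP without overlap relative to Dbh and to Slc6a2, and overlap relative to Slc18a2. Of all genes, 0.0556%, 0.238% and 0.00794% were higher in hTyr without overlap on the 3 scales, and limma over all genes relative to Dbh passed 0 of the 6.

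The members fell into a group that varied together in IP and members that did not follow it. After the treatment means were removed, Th and Gch1 had a Pearson r of 0.969 and a Spearman rho of 0.955 over the 11 IP libraries (permutation p = 1e-05 for r, the smallest that 100000 permutations allow, and 4e-05 for rho). Adjusted over the 15 pairs of members these were 0.00015 and 0.0006, and r was 0.937 without hTyr animal 1 and EYFP animal 1, the farthest in Th. Th and Ddc had r = 0.880 and rho = 0.800 (permutation p = 0.00034 and 0.00494, adjusted 0.0017 and 0.0247), and r fell to 0.662 without the same animals. Ddc and Gch1 had r = 0.897 and rho = 0.800 (permutation p = 0.00018 and 0.00426, adjusted 0.00135 and 0.0247), with r = 0.763 without them. Qdpr had r between 0.579 and 0.676 with these 3 (adjusted permutation p for r from 0.0844 to 0.150). Pts and Spr had r between -0.25 and 0.38 with all others, none of which passed. The levels of these libraries share how much noradrenergic RNA each holds: Dbh had r = 0.945 with Th, 0.898 with Gch1 and 0.808 with Ddc, and the part of that amount in the relations among members was not tested.

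**Figure D5:**
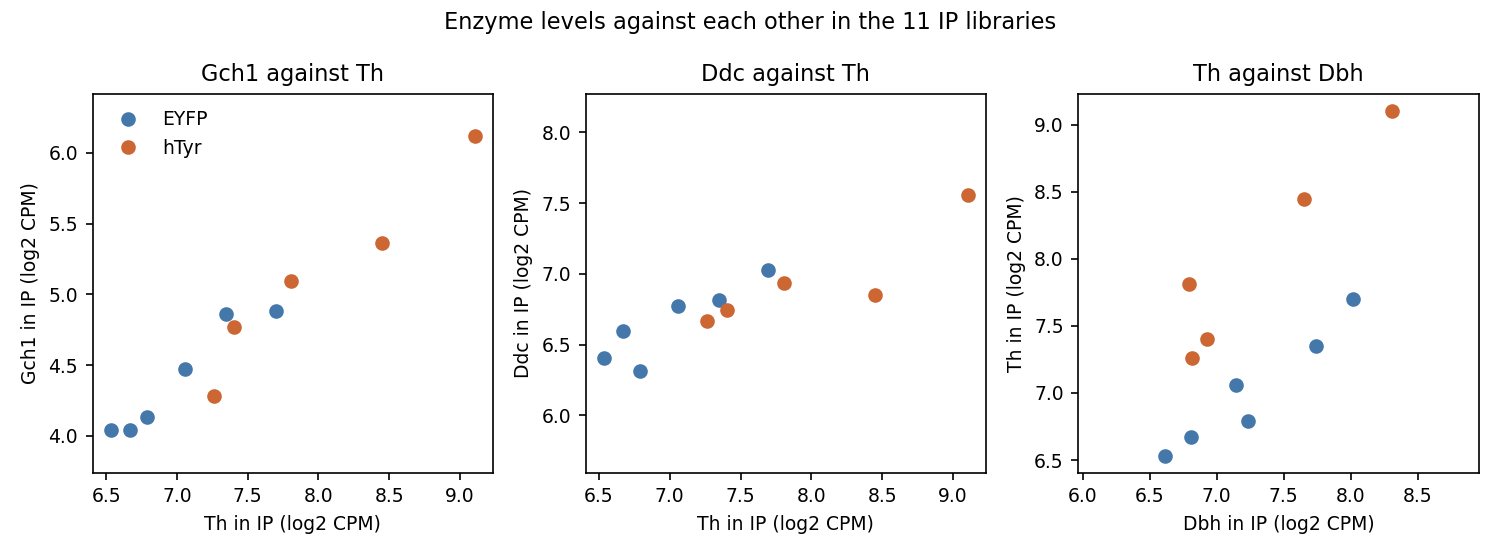
Levels in the 11 IP libraries plotted against each other (log2 CPM on both axes), Gch1 and Ddc against Th, and Th against Dbh, with EYFP in blue and hTyr in orange. Gch1 and Th rise together (r = 0.969 after treatment means are removed), and at a given Dbh level the hTyr points of Th lie above the EYFP points.

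Ranked by r over the same 11 IP libraries, the gene nearest to Th among all 12596 was Gch1 itself, then Cpne5 (r = 0.966) and Maoa (r = 0.953), the monoamine oxidase of noradrenergic cells. Nearest to Gch1 were Maoa (r = 0.974), Th and Rala (r = 0.967). For Ddc they were Csmd3 (r = 0.955), Rit2 (r = 0.949) and Calca (r = 0.947), the calcitonin gene-related peptide gene. Pts was nearest to Foxb1, Chmp7 and Scaf4 (r from 0.925 to 0.956), Spr to Plscr4, Pax7 and Rnd1 (r from 0.818 to 0.869), and Qdpr to Mak16, Nosip and Smim18 (r from 0.870 to 0.885). No noradrenergic marker or member was among these for Pts, Spr and Qdpr. These r values are descriptions over libraries that share a preparation, and are the highest of 12595 for each member.

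Levels of different genes were compared per kilobase of exon. In EYFP IP the order of log2 CPM per kilobase of merged exons was Qdpr 8.30 ± 0.12, Th 5.78 ± 0.44, Spr 4.67 ± 0.13, Ddc 4.50 ± 0.27, Pts 2.62 ± 0.10 and Gch1 1.76 ± 0.39 (SD, n = 6). Spr and Ddc lay within their spread of each other. In hTyr IP it was Qdpr 8.44, Th 6.76, Spr 4.82, Ddc 4.79, Pts 2.58 and Gch1 2.48. Pts and Gch1 lay within the spread of Gch1 there (SD 0.69). By group mean, Qdpr was the highest and Gch1 the lowest of the 6 in both IP groups, under either length that was used, though in hTyr IP the order of Gch1 and Pts by merged exons was not the same in every library. With the longest coding transcript as the length, the order in EYFP IP was Qdpr 8.67, Th 6.05, Ddc 5.64, Pts 5.17, Spr 4.67 and Gch1 2.93, so the places of Spr, Ddc and Pts depend on the length that is used.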

How the data were processed

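The deposited data are a gene-by-library matrix (12596 genes, 22 libraries) of log2 values that the authors had already filtered and normalized, per the file name. STAR, featureCounts and mm10 are named per the submitters' processing notes, without versions. The filter, the normalization and the strand of counting are not given in the sources used here. The deposited log2 values fit log2 CPM with a pseudocount that averaged 2 reads: 100% came back as whole reads within 0.05 reads. Columns were matched to samples by name. Groups came from the treatment labels.

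Genes were fitted with limma 3.58.1 in R 4.3.3 (lmFit, eBayes with trend) on all 12596 genes, with Benjamini-Hochberg adjustment and a threshold of 0.05. The fits were tested on simulated data. The members, gene lists and tests were chosen with earlier results of these data known. Named genes are the 6 members, listed pathway genes that passed, Dbh, Slc6a2, Slc18a2, Pcbd1 and Gchfr, and for each member the 3 genes of highest r in IP. Single values were compared by exact permutation (scipy 1.17.1, Python 3.11.15). The animal number in the titles pairs IP and input: deviations from the group means correlated in 11 of 11 pairs (r 0.279 to 0.626, mean 0.448). The main fits have no block, since no source states a paired model, and the block on the animal is an alternative. The labels' animals are the replicates. Reads carry no molecular identifiers. No batch or date is labelled. Alternatives were another scaling, filter, pseudocount, prior, weights, shared spread, voom on the recovered reads (7 genes for hTyr against EYFP in IP), the replicate block, another reference gene, and leaving out each animal.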

Additional observations from a re-analysis of the deposited data

Results flagged for a closer look

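Qdpr in the hTyr IP library of animal 1 stood at 9.39 log2 CPM, with the other 4 hTyr IP libraries between 9.22 and 9.27. The gap to the nearest of them, as a share of the group's range, was above Dixon's 95% critical value for 5 samples. It was the only such case in 24 groups (6 genes in 4 groups), where chance gives about 1 in 20. The same library had the highest Th (9.10), Ddc (7.56) and Gch1 (6.12) of all IP libraries, and the highest summed noradrenergic markers (1311 CPM). Whether these move together for a technical reason was not tested.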

How the results depend on the processing

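No alternative brought a member past the threshold for hTyr against EYFP in IP, in input, or for the interaction. Over the 19 alternatives of each, Th ranged from 0.71 to 1.17 in IP, 0.13 to 0.33 in input and 0.58 to 0.92 for the interaction. Genes past the threshold in IP were 14 with a shared spread and 3 to 11 without 1 animal. In input they were 0 with a shared spread and 0 to 2 without 1 animal. For the interaction they were 3 with sample quality weights, 5 with the replicate block and 0 to 5 without 1 animal. The replicate block changed no member's call. For IP against input in hTyr, 3 to 5 members passed without 1 animal (3 without hTyr animal 4), and 5 of 6 passed in EYFP under every alternative. Relative to Dbh, 1 gene passed with a pseudocount of 5 CPM, 9 genes with Slc6a2 and 11 with Slc18a2 as reference, 2806 genes and 3 members with sample quality weights, and 0 to 7 genes without 1 animal. The cause of these moves was not tested. Small estimates changed sign. Without 1 animal, Pts ranged from -0.083 to 0.012 for hTyr against EYFP in IP. For the interaction Spr ranged from -0.15 to 0.030 and Qdpr from -0.12 to 0.025. Relative to Dbh, Pts ranged from -0.23 to 0.14, Spr from -0.024 to 0.39 and Qdpr from -0.049 to 0.33 without 1 animal. Pts was 0.22 with sample quality weights and 0.34 against Slc6a2, and Ddc was -0.20, Spr -0.35 and Qdpr -0.36 against Slc18a2. Quantile normalization and median centring moved the median of all genes by under 0.1. With 5 and 6 animals, intervals for Th and Gch1 in IP span more than 1 log2 unit. The part of depth in their width was not tested, and the lowest count of a member was 121 reads.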

Other observations

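In input, 5 of the 6 enzymes were highest in the same 3 hTyr animals. Among the 5 hTyr animals, animals 1, 2 and 5 (numbered in the order of the labels) had the 3 highest input levels of Th, Ddc, Gch1, Spr and Qdpr, and animals 3 and 4 the lowest. Spr stood at 6.53, 6.36, 6.16, 6.08 and 6.49 log2 CPM in input of animals 1 to 5, and Qdpr at 9.22, 9.06, 8.88, 8.71 and 9.23. The same 3 animals were highest in input for 17.4% of all genes. In IP they were highest for 3 members, Th, Ddc and Gch1, and for 12% of all genes. Dbh did not share the order in input, where animal 4 was highest at 3.13 and animal 5 lowest at 2.85. Reads in these 3 input libraries (25100142, 18771136 and 19830627) enclosed those of animals 3 and 4 (19203673 and 23016907).

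Relations in input were computed after those values were seen, so they describe the same data. Over the 11 input libraries, with treatment means removed, Th had r = 0.836 with Gch1 (rho = 0.827), 0.820 with Ddc (rho = 0.764), 0.808 with Qdpr (rho = 0.809) and 0.799 with Spr (rho = 0.691). Permutation p for r was 0.00093, 0.00188, 0.00191 and 0.00293, and adjusted over the 15 pairs 0.00955 for the first 3 and 0.0110 for Spr. For rho the permutation p was 0.00258, 0.00873, 0.00394 and 0.0235, adjusted 0.0197, 0.0327, 0.0197 and 0.0685. Without EYFP animal 2 and hTyr animal 4, the farthest in Th, r was 0.739, 0.734, 0.740 and 0.949. In IP, r between Th and Spr was -0.10, and the difference between the fractions was not tested. Pts had r between -0.57 and -0.12 with the other 5 in input, none of which passed.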
